A study of Mus musculus with 22 samples.

Results

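Interferon beta and the receptor signalling it starts were followed in mouse macrophages that lacked the protein kinase MK2 or both MK2 and its relative MK3. The 6 genes were Ifnb1, which encodes interferon beta, Ifnar1 and Ifnar2, the chains of its receptor, Jak1 and Tyk2, the kinases bound to those chains, and Stat2, a transcription factor that the kinases activate. They were chosen by name, as the probes whose RefSeq accession on the array belongs to 1 of these symbols. The rule used no measured value, but earlier results of these data were known when the genes were chosen. This gave 8 probes for 6 of the 22384 genes tested, 3 of them for Ifnar1 and 1 for each other gene. All 8 probes passed the filter on dim probes.

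The cells were bone marrow-derived macrophages (BMDM), that is, macrophages grown from bone marrow in culture with the growth factor M-CSF. The marrow came from C57BL/6 mice, which were wild-type (wt), without MK2 (MK2-/-) or without MK2 and MK3 (MK2/3-/-). The knockouts were constitutive, so every cell of the animal lacked the kinases, also while the macrophages grew. The mice were labelled male and were 10 to 14 weeks old, with 12 to 13 weeks in wt, 10 to 13 in MK2-/- and 11 to 14 in MK2/3-/-. For 360 min the cells were left in medium or stimulated with lipopolysaccharide (LPS), which Gram-negative bacteria carry on their surface, at 100 ng per ml. Labelled RNA of each culture was read on a 1-colour Agilent microarray. There were 3 arrays of wt LPS, 4 of wt medium, 4 of MK2-/- LPS, 4 of MK2-/- medium, 4 of MK2/3-/- LPS and 3 of MK2/3-/- medium, 22 in all. Arrays of 1 group are separate samples per the labels, and per the methods independent experiments.

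Interferon beta is a secreted cytokine that macrophages make when Toll-like receptor 4 (TLR4) senses LPS and the adaptors TRIF and TRAM pass the signal to the kinases TBK1 and IKK epsilon and the transcription factor IRF3. It acts on the cells that made it and on their neighbours through the IFNAR1 and IFNAR2 chains. TYK2 and JAK1 then phosphorylate STAT2, which enters the complex ISGF3 together with IRF9, and ISGF3 binds the interferon-stimulated response element (ISRE) of antiviral genes. In macrophages this loop makes up a large share of the late response to LPS.

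Upstream stretches of Ifnb1, Stat2 and Ifnar2 are shown as examples of genes that moved under LPS and hold a motif of NF-kB, which LPS activates, or of STAT factors. They come from the RefSeq promoter table (GRCm38.p6), which had an entry for all 6 genes, and read 5′ to 3′ on the strand of the gene, with a motif match in capitals.
Ifnb1, chr4:88522855-88522994, minus strand, from 200 bases before the start: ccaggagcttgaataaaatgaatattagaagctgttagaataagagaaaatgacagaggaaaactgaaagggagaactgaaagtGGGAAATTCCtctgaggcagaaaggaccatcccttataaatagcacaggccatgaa
Stat2, chr10:128270248-128270347, plus strand, from 250 bases before the start: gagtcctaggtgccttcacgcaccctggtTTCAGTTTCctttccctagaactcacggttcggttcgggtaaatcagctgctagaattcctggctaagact
Ifnar2, chr16:91372553-91372612, plus strand, from 230 bases before the start: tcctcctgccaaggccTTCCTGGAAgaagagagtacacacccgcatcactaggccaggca

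The capitals in Ifnb1 mark the kappaB motif that NF-kB binds (GGGNNNTTCC), those in Stat2 the core of an ISRE (GAAANNGAA, here on the opposite strand), and those in Ifnar2 the gamma-activated site that STAT dimers bind (GAS, TTCNNNGAA). Each motif was searched on both strands of the 250 bases before and 50 bases after the start of 32851 promoters, and no site of the 6 genes overlapped a site of another motif. The kappaB motif was in 5.56% of all promoters and, of the 6, in that of Ifnb1, beginning 116 bases before the start. The ISRE core was in 8.56% of all promoters and, of the 6, in that of Stat2, 221 bases before the start. The GAS was in 8.3% of all promoters and in those of Ifnar2, 214 bases before the start, and Ifnar1, as TTCACGGAA from 5 bases before the start. Jak1 and Tyk2 held none of these letters in this window. A match is a stretch of letters, and binding was not measured.

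Values below are log2 gProcessedSignal, the background-subtracted spot intensity of the scanner software, quantile normalised over the 22 arrays, and differences are between group means on this log2 scale. A gene was called where its limma test gave a Benjamini-Hochberg adjusted p below 0.05 over all genes tested. Median signals per array ran from 32.7 to 108 intensity units, 61.7% to 83.0% of probes were well above background, and no spot was saturated. Each genotype had its own slide and scan, so genotype and slide cannot be told apart, while LPS and medium of a genotype shared a slide. Mapkapk2 and Mapkapk3, which encode MK2 and MK3, were lower in the genotypes named for them within each treatment, with no overlap with wt. The MK2-/- LPS and MK2-/- medium arrays that share the letter c, both replicate 3, had Ddx3y (Y-linked) at 1.99 and 2.01 against 10.09 to 11.26 on the other 20 arrays, and Xist at 7.66 and 7.78 against at most 5.79, so they did not look like male tissue; results are also given without both where these differ. The first of them also had 2927 spots marked as outliers, compared with 115 to 261 on the others. The macrophage markers Csf1r and Adgre1 were well above background on all 22 arrays, with median log2 signals of 17.86 and 16.21, while Cd68 had no named probe. Of the other cell types, Cd3e (T cell), Elane (neutrophil), Col1a1 (fibroblast) and Siglech (plasmacytoid dendritic cell) were also well above background on all 22 arrays. So were Zbtb46 (conventional dendritic cell), Cd79a and Cd79b (B cell). Flt3 and Cd209a (conventional dendritic cell) were on 21 and 13 arrays, and Klrb1c (NK cell) was on 12. Xcr1 (conventional dendritic cell), Cd3g (T cell) and Ncr1 (NK cell) were on 4, 2 and 3. In bulk RNA, fewer cells of a type and less RNA per cell cannot be told apart.

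Ifnb1 (NM_010510) was close to the floor of the scale in medium and rose under LPS in all 3 genotypes. On the wt medium arrays it read 3.73, 4.59, 2.04 and 4.64, and on the wt LPS arrays 10.79, 10.89 and 12.89. In MK2-/- BMDM the medium arrays gave 3.92, 4.91, 4.05 and 2.92, and the LPS arrays 8.90, 7.41, 8.76 and 9.68. In MK2/3-/- BMDM the medium arrays gave 4.22, 1.99 and 2.82, and the LPS arrays 9.77, 8.45, 10.07 and 10.70. Every LPS array lay above every medium array, and among the LPS arrays all 3 of wt lay above all 4 of each knockout. The spot was well above background on all 11 LPS arrays, and in medium on 2 of 4 wt, 1 of 4 MK2-/- and 1 of 3 MK2/3-/- arrays, so the medium levels carry little order among themselves.

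The rise of Ifnb1 was 7.77 ± 0.74 (SE) in wt, which is 219-fold, 4.74 ± 0.69 in MK2-/- (26.7-fold) and 6.74 ± 0.74 in MK2/3-/- (107-fold), with limma adjusted p of 1.15e-07, 1.12e-05 and 3.69e-07. In wt, 0.0223% of all genes, Ifnb1 included, differed at least as much between LPS and medium. With normexp background correction, which adds an offset to dim spots, the rises were 5.18, 2.53 and 3.51, so the fold depends on how the dim medium signals are treated while the calls did not. The plasmacytoid dendritic cell list, 4 markers of a strong source of type I interferon that include the interferon-inducible Bst2, had mean log2 signals of 12.60 to 12.93 in wt LPS and 11.98 to 12.60 in wt medium, and its part in the rise was not tested.

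**Figure D1:**
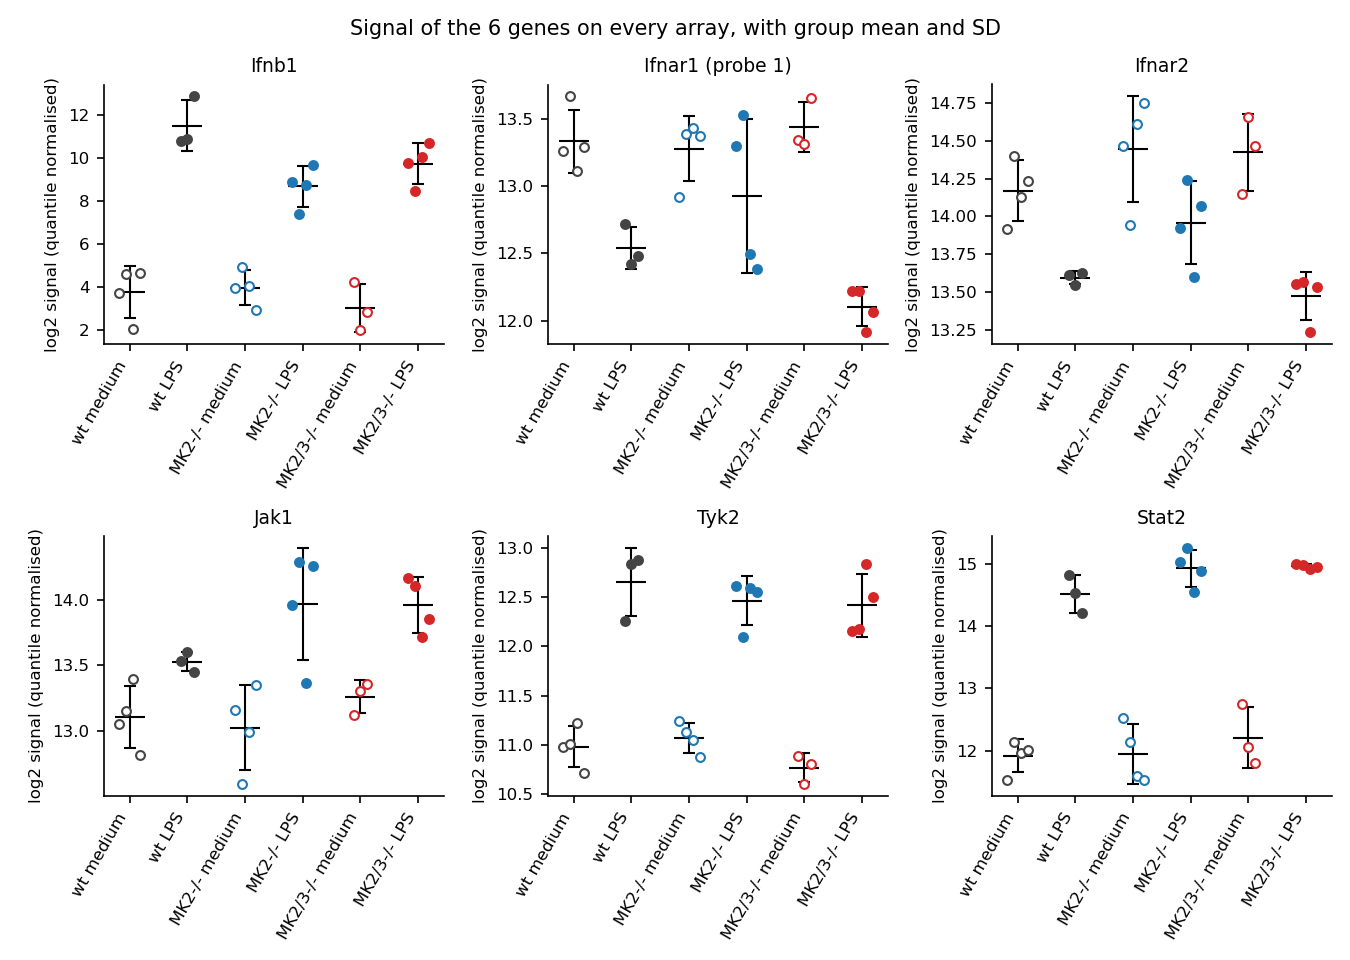
Log2 signal of Ifnb1, Ifnar1 (its brightest probe), Ifnar2, Jak1, Tyk2 and Stat2 on each array, by genotype and treatment, where open circles are medium, filled circles are LPS and the bars give the mean and SD of 3 or 4 arrays. Each panel has its own axis. Ifnb1, Tyk2 and Stat2 were higher on every LPS array than on every medium array, and the 3 wt LPS arrays of Ifnb1, at 10.79 to 12.89, lay above the LPS arrays of both knockouts, at 7.41 to 10.70.

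Under LPS Ifnb1 was lower in MK2-/- than in wt. The mean level of the wt arrays was 11.52 ± 1.19 (SD, n = 3). That of the MK2-/- arrays was 8.69 ± 0.95 (SD, n = 4), and MK2/3-/- reached 9.75 ± 0.95 (SD, n = 4). Ifnb1 fell by 2.84 ± 0.74 (SE) in MK2-/- compared with wt, a 7.14-fold difference with adjusted p 0.0217 in limma. The call rested on single arrays: the difference was -2.15 (adjusted p 0.107) without wt LPS replicate 3, the highest array, and -2.41 (adjusted p 0.0649) without MK2-/- LPS replicate 2, the lowest. Without both arrays of letter c it was -2.86 (adjusted p 0.0404). In MK2/3-/- the difference from wt was -1.78 (95% confidence interval -3.33 to -0.22, adjusted p 0.0900), not called although the arrays did not overlap. By limma it was called with normexp (-1.69, adjusted p 0.0110) and with array weights (-2.44, adjusted p 0.0373). It was called in 0 of the refits that left out 1 array. The 2 knockouts differed by 1.06 (interval -0.38 to 2.50, adjusted p 0.338) and their arrays overlapped.

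The LPS response of Ifnb1, that is, the rise itself, was not called as different between genotypes. It was smaller by 3.04 ± 1.01 (SE) in MK2-/- than in wt, with an unadjusted p of 0.00736 and an adjusted p of 0.457 in limma. For MK2/3-/- against wt the difference of the rises was -1.03 (interval -3.23 to 1.16), and for MK2/3-/- against MK2-/- it was 2.00 (interval -0.11 to 4.12). In medium the levels of Ifnb1 differed by -0.94 to 0.20 between genotypes, with none called.

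The other type I interferon genes, a list of 17 that shares the receptor with Ifnb1, moved much less. 12 were tested, and 7 rose under LPS in wt, 3 in MK2-/- and 6 in MK2/3-/-, with none lower and with median differences of 0.66, 0.48 and 0.64 against -0.04, -0.01 and 0.01 over all genes, where 42.1%, 44.6% and 48.2% of all genes were called. The 4 with the largest called differences in wt were Ifna16 (1.28), Ifna1 (1.26), Ifnab (0.75) and Ifna2 (0.75). The coding sequences of interferon alpha genes are close to identical, so a probe may read several of them.

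Between genotypes under LPS the called interferon alpha genes went both ways in MK2-/- against wt and were all higher in the other comparisons. Ifna2 read 7.16 to 7.97 in wt, 6.13 to 6.77 in MK2-/- and 7.78 to 8.54 in MK2/3-/-, a difference of -1.15 between MK2-/- and wt (adjusted p 0.00683) and of 1.65 between MK2/3-/- and MK2-/- (adjusted p 7.43e-05). With 75th percentile scaling the first was -0.73 and no longer called (adjusted p 0.0507). For Ifna7 the same differences were -2.10 (adjusted p 0.0245) and 3.11 (adjusted p 6.60e-04), but only 1 of 4 MK2-/- LPS arrays was well above background. Its first difference was -0.74 with normexp and -1.54 (adjusted p 0.0659) with 75th percentile scaling, and it was not called in 5 of 22 refits that left out 1 array, namely wt LPS replicate 1 or 3 or MK2-/- LPS replicate 1, 2 or 4 (adjusted p 0.0543 to 0.110). Ifna7 differed as much in medium (-2.27 and 3.24, adjusted p 0.0146 and 0.00288), and Ifna2 differed by 0.97 in medium between MK2/3-/- and MK2-/- (adjusted p 0.0308). Ifna4 exceeded wt by 1.92 in MK2-/- (adjusted p 0.0150) and by 1.80 in MK2/3-/- (adjusted p 0.00897), where 1 of 3 wt LPS arrays was well above background. With normexp these were 0.38 and 0.35, and without wt LPS replicate 2 neither was called (adjusted p 0.0752 and 0.0660). Ifna5 in MK2/3-/- exceeded wt by 1.13 (adjusted p 0.0471) and MK2-/- by 1.80 (adjusted p 0.00325), and the call against wt was lost in 15 of 22 refits that each left out 1 array. Ifna13 and Ifnab in MK2/3-/- exceeded MK2-/- by 0.68 and 0.78 (adjusted p 0.0110 and 0.0222), and the call of Ifnab was lost without MK2-/- LPS replicate 1, 2 or 3 or MK2/3-/- LPS replicate 3 (adjusted p 0.0501 to 0.0707). In all, 1 of 12 was higher and 2 were lower in MK2-/- than in wt, where 11.6% of all genes were called, 2 were higher in MK2/3-/- than in wt (23.6% of all genes called), and 5 were higher in MK2/3-/- than in MK2-/- (13.5% of all genes called), with none lower in the last 2 comparisons. Without both arrays of letter c, Ifna5 against wt and Ifnab were no longer called (adjusted p 0.0621 and 0.0656).

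Of the 6 genes, 5 were called between LPS and medium in wt, all but Jak1, where 42.1% of all genes were called. In MK2-/- BMDM 5 were called, all but Ifnar1, where 44.6% of all genes were called. In MK2/3-/- BMDM 6 of 6 were called, where 48.2% of all genes were called. With so large a share of genes called, these counts say little about the 6 genes, and their sizes and directions are given below.

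For the receptor chains the direction under LPS depended on the probe for Ifnar1 and, in wt and MK2-/-, on the scaling for Ifnar2. Ifnar1 (NM_010508), the chain that holds TYK2, had 3 probes of 1 accession that disagreed in direction, and where each lies on the transcript is not given in the sources used here. Probe 1, the brightest and the one used for counts, read 13.26, 13.67, 13.12 and 13.29 in wt medium and 12.72, 12.42 and 12.48 in wt LPS. In MK2-/- it read 12.92, 13.39, 13.44 and 13.37 in medium and 13.30, 13.53, 12.50 and 12.38 under LPS, and in MK2/3-/- 13.35, 13.32 and 13.66 in medium and 12.22, 12.22, 11.91 and 12.06 under LPS. LPS arrays lay below all medium arrays in wt and MK2/3-/-, and in MK2-/- they split, with replicate 1 among the medium arrays, replicate 2 above them and replicates 3 and 4 below them.

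By probe 1, Ifnar1 fell in wt (-0.79 ± 0.24 SE, adjusted p 0.0126) and in MK2/3-/- (-1.34 ± 0.24, adjusted p 1.30e-04), while -0.35 ± 0.22 in MK2-/- was not called (adjusted p 0.224). The call in wt was lost without wt LPS replicate 2 (-0.74, adjusted p 0.0516). By probe 3 it rose in all 3 genotypes, by 1.29, 1.46 and 0.91, with limma p adjusted over the 28103 probes kept of 3.73e-05, 2.38e-06 and 8.29e-04. By probe 2 the rises were 0.63 in wt (adjusted p 0.0464) and, for MK2-/-, 1.00 (adjusted p 0.00123), with 0.34 in MK2/3-/- not called (adjusted p 0.280). The probes therefore gave opposite directions for the same transcript accession. Within an array, probe 3 minus probe 1 was -4.45 to -3.86 in medium and -2.32 to -1.73 under LPS over the 3 genotypes, so the unequal change was present on every array.

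Scaling decides how far the fall of probe 1 can be read. When each array was scaled to its 75th percentile in place of quantile normalisation, the median difference of all genes between LPS and medium moved from -0.04 to 0.30 in wt, from -0.01 to 0.28 in MK2-/- and from 0.01 to 0.29 in MK2/3-/-. Of the genes called, 60.5%, 53.6% and 54.1% were then higher under LPS, compared with 44.2%, 39.2% and 42.0%. On that scale probe 1 gave -0.30 in wt (adjusted p 0.363), 0.17 in MK2-/- and -0.90 in MK2/3-/- (adjusted p 0.00697), which is -0.60, -0.11 and -1.19 relative to the median gene. Probes 2 and 3 kept their direction on it.

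**Figure D2:**
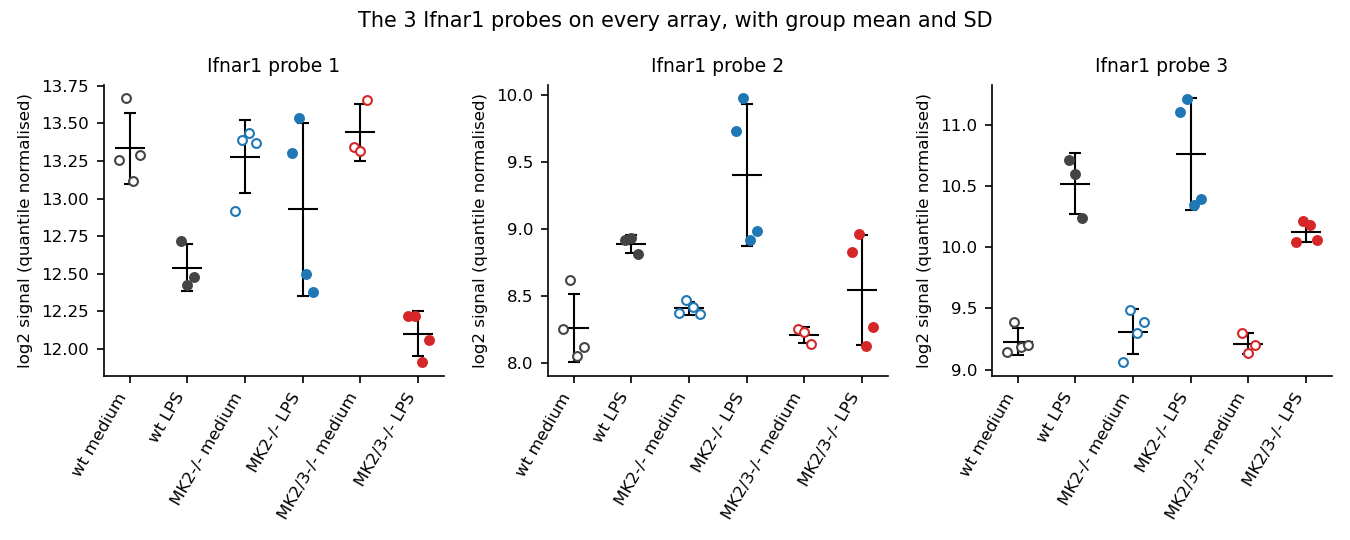
Log2 signal of the 3 Ifnar1 probes on each array, by genotype and treatment, with open circles for medium, filled circles for LPS and bars for the mean and SD of 3 or 4 arrays. Each panel has its own axis, since levels of different probes cannot be compared. Under LPS probe 1 was lower in wt and MK2/3-/-, while probe 3 was higher in all 3 genotypes, and all 3 probes had a lower mean in MK2/3-/- LPS than in MK2-/- LPS.

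Between the knockouts under LPS the 3 probes had 1 direction. Ifnar1 was lower in MK2/3-/- than in MK2-/- by probe 1 (-0.82 ± 0.22 SE, adjusted p 0.0200), by probe 2 (-0.86, adjusted p 0.0176 over probes) and by probe 3 (-0.64, adjusted p 0.0283 over probes). Without both arrays of letter c the differences were -0.97, -1.02 and -0.78. The call of probe 1 was lost without MK2-/- LPS replicate 1 (-0.70, adjusted p 0.0783), without MK2-/- LPS replicate 2 (-0.62, adjusted p 0.0790) and without MK2/3-/- LPS replicate 3 (-0.76, adjusted p 0.0544). In the main model neither knockout was called against wt by any probe. Probe 1 gave 0.39 in MK2-/- and -0.44 in MK2/3-/-. With 75th percentile scaling limma called MK2/3-/- against wt by probe 1 (-0.79, adjusted p 0.0231 over probes) and probe 3 (-0.65, adjusted p 0.0208 over probes). Probe 2 was not called on that scale (-0.26). By limma with array weights, probe 1 was also called for MK2-/- against wt, at 0.64 (adjusted p 0.033). The 4 markers of conventional dendritic cells had a mean log2 signal of 6.76 to 7.49 in MK2/3-/- LPS. It was 5.52 to 6.34 in MK2-/- LPS and 5.58 to 6.15 in wt LPS. The part of these cells in the difference between the knockouts was not tested.

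Ifnar2 (NM_010509), the chain that holds JAK1, fell under LPS in all 3 genotypes on the quantile scale. It read 13.91, 14.40, 14.13 and 14.24 in wt medium and 13.61, 13.54 and 13.63 in wt LPS. The MK2-/- arrays gave 14.47, 13.95, 14.62 and 14.75 in medium and 13.92, 14.24, 13.60 and 14.07 under LPS, and the MK2/3-/- arrays 14.15, 14.66 and 14.47 in medium and 13.55, 13.57, 13.23 and 13.53 under LPS. The treatments did not overlap in wt and MK2/3-/- and overlapped in MK2-/-.

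The fall of Ifnar2 was 1.49-fold in wt (-0.58 ± 0.20 SE, adjusted p 0.0266), 1.40-fold in MK2-/- (-0.48 ± 0.19, adjusted p 0.0401) and 1.94-fold in MK2/3-/- (-0.95 ± 0.20, adjusted p 5.77e-04). With 75th percentile scaling it turned to 0.15 in wt and 0.32 in MK2-/- and was -0.17 in MK2/3-/-, none called, which is -0.15, 0.04 and -0.46 relative to the median gene. The direction in wt and MK2-/- thus depends on the scaling. Without both arrays of letter c the MK2-/- value was -0.31 (adjusted p 0.256), and with each of 5 single wt arrays left out the wt call was lost (adjusted p 0.0522 to 0.0791), as was the MK2-/- call with each of 5 single MK2-/- arrays (adjusted p 0.0752 to 0.136).

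The receptors of other interferons were 4 genes. Ifngr1, the ligand-binding chain of the interferon gamma receptor, fell under LPS, with differences of -1.91 in wt, -2.05 in MK2-/- and -2.72 in MK2/3-/-. Ifngr2, its partner, rose by 0.56 in wt and was not called in the knockouts (0.35 and 0.15). Its call in wt was lost in 4 of 22 refits that left out 1 array (limma adjusted p 0.0650 to 0.123). Il10rb, shared by the receptors of interferon lambda and interleukin 10, fell in MK2/3-/- (-0.61). None of the 4 was called under LPS in MK2-/- against wt, MK2/3-/- against wt or MK2/3-/- against MK2-/-, where 11.6%, 23.6% and 13.5% of all genes were called. An unadjusted limma p below 0.05 was found for 0, 1 and 1 of 4, and for 6601, 8201 and 6341 of all 22384 genes.

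Of the receptor kinases, Tyk2 rose in all 3 genotypes and Jak1 in both knockouts. Tyk2 (NM_018793) read 10.98, 11.01, 11.22 and 10.71 in wt medium and 12.26, 12.84 and 12.88 in wt LPS. In MK2-/- it read 11.24, 11.12, 11.04 and 10.87 in medium and 12.62, 12.10, 12.59 and 12.56 under LPS, and in MK2/3-/- 10.89, 10.60 and 10.80 in medium and 12.16, 12.18, 12.84 and 12.50 under LPS. Every LPS array lay above every medium array. The rise was 3.20-fold in wt (1.68 ± 0.20 SE, adjusted p 2.28e-06), 2.64-fold in MK2-/- (1.40 ± 0.19, adjusted p 4.79e-06) and 3.15-fold in MK2/3-/- (1.66 ± 0.20, adjusted p 1.53e-06).

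Jak1 (NM_146145) read 13.06, 13.16, 13.40 and 12.82 in wt medium and 13.53, 13.60 and 13.45 in wt LPS. It read 13.16, 12.60, 12.99 and 13.35 in MK2-/- medium and 13.96, 14.29, 13.37 and 14.26 in MK2-/- LPS, and 13.12, 13.31 and 13.36 in MK2/3-/- medium and 14.16, 14.11, 13.71 and 13.85 in MK2/3-/- LPS. LPS and medium did not overlap in any genotype, although the groups came close in wt (13.45 against 13.40) and MK2-/- (13.37 against 13.35). Jak1 rose by 0.94 ± 0.20 (SE) in MK2-/-, with adjusted p 7.90e-04, and by 0.70 ± 0.22 in MK2/3-/-, with adjusted p 0.0135. The difference of 0.42 ± 0.22 in wt was not called (adjusted p 0.136). With 75th percentile scaling it was called in all 3 genotypes, at 1.01, 1.58 and 1.41. Without MK2/3-/- medium replicate 1 the call in MK2/3-/- was lost (0.62, adjusted p 0.0553).

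Stat2 (NM_019963) had the second largest rise of the 6 genes after Ifnb1 in each genotype. It read 11.54, 12.15, 11.97 and 12.02 in wt medium and 14.82, 14.53 and 14.20 in wt LPS. The MK2-/- arrays gave 12.53, 12.14, 11.59 and 11.53 in medium and 15.03, 15.25, 14.54 and 14.88 under LPS, and the MK2/3-/- arrays 12.76, 12.06 and 11.81 in medium and 15.00, 14.97, 14.91 and 14.95 under LPS. Every LPS array lay above every medium array, and under LPS the 4 MK2/3-/- arrays lay above all 3 of wt. The rise was 6.04-fold in wt (2.60 ± 0.26 SE, adjusted p 2.24e-07), 7.86-fold in MK2-/- (2.98 ± 0.24, adjusted p 7.29e-09) and 6.72-fold in MK2/3-/- (2.75 ± 0.26, adjusted p 5.93e-08).

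**Figure D3:**
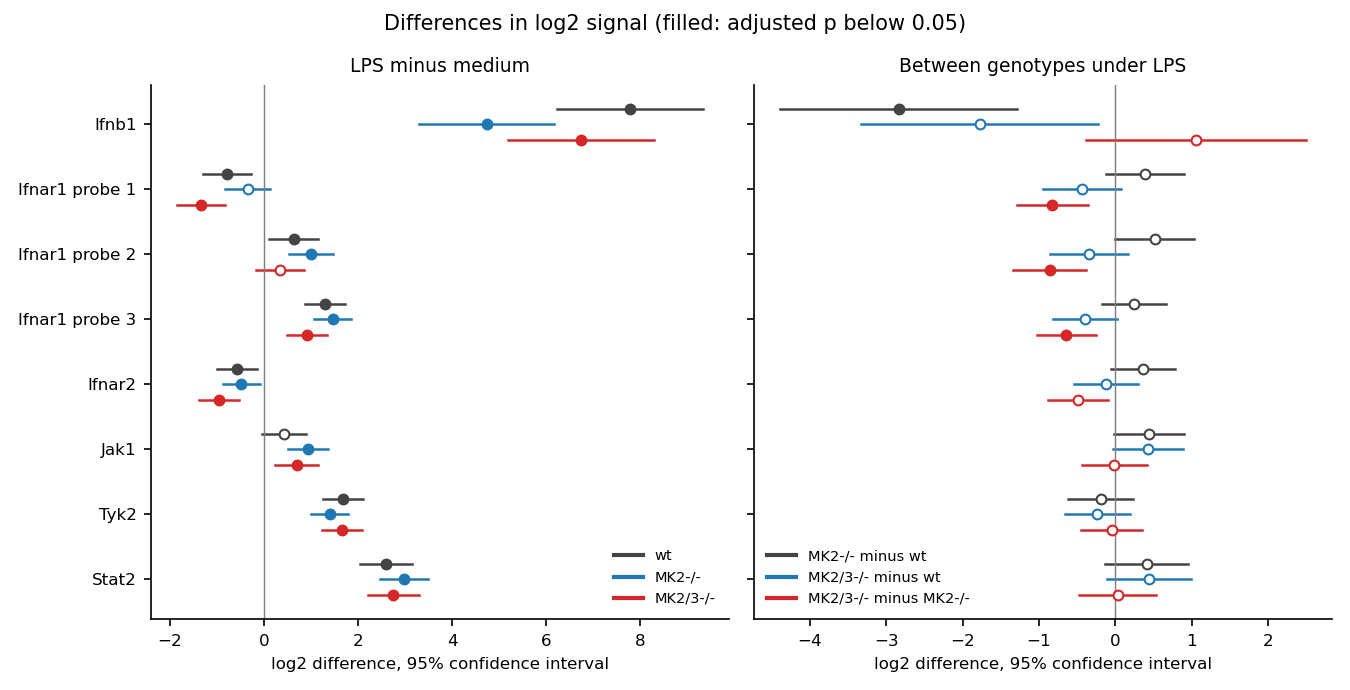
Differences in log2 signal with 95% confidence intervals for the 8 probes, as LPS minus medium in each genotype (left) and between genotypes under LPS (right), where filled points had an adjusted p below 0.05. Ifnb1 had the largest rise, 7.77 in wt, the intervals of the 3 genotypes overlapped for Tyk2 and for Stat2, and on the right only Ifnb1 in MK2-/- against wt and the 3 Ifnar1 probes in MK2/3-/- against MK2-/- were filled.

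Between genotypes under LPS 1 of 6 genes, Ifnb1, was called in MK2-/- against wt, where 11.6% of all genes were called. In MK2/3-/- against wt 0 of 6 were called by limma, where 23.6% of all genes were called. At an unadjusted limma p below 0.05 were 1 of 6 and 8201 of all 22384 genes, and 3 of 6 by the methods' t-test at that threshold. In MK2/3-/- against MK2-/- 1 of 6, Ifnar1, was called, where 13.5% of all genes were called. With 75th percentile scaling 63.7%, 57.3% and 68.6% of the genes called in these 3 comparisons were higher in the first-named genotype, against 39.0%, 40.7% and 57.1% with quantile normalisation. Over the 3 comparisons Tyk2 differed by -0.24 to -0.05 with intervals within -0.67 to 0.35, and Stat2 by 0.03 to 0.44 with intervals within -0.47 to 0.99. Jak1 differed by -0.01 to 0.44 (intervals within -0.44 to 0.90) and Ifnar2 by -0.49 to 0.37 (within -0.88 to 0.79).

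In medium no gene of the 6 was called in MK2-/- against wt, where 8.82% of all genes were called, in MK2/3-/- against wt, where 2.02% were called, or in MK2/3-/- against MK2-/-, where 2.82% were called. The count at an unadjusted limma p below 0.05 was also 0 of 6 in each, where 5798, 3784 and 3358 of all 22384 genes were below it. The methods' t-test at that threshold gave 0, 0 and 1 of 6, and its counts over all genes are not given here. For the difference of the LPS responses 0 of 6 were called in MK2-/- against wt, where 0% of all genes were called, in MK2/3-/- against wt, where 0.679% were called, and in MK2/3-/- against MK2-/-, where 0.067% were called. At an unadjusted limma p below 0.05 the counts were 1, 0 and 1 of 6, namely Ifnb1 in the first and Ifnar1 in the last. Over all 22384 genes they were 1685, 2545 and 1926.

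Irf9, which gives ISGF3 its DNA binding, rose by 0.52 under LPS in wt and 0.47 in MK2-/- and differed by 0.14 in MK2/3-/-, which was not called. In refits that left out 1 array the call was lost in 5 of 22 for wt (limma adjusted p 0.0521 to 0.0861). For MK2-/- it was lost in 6 of 22 (0.0510 to 0.0716). The LPS response of Irf9 was not called as different between any genotypes. It was not called between genotypes under LPS, with differences of -0.13 for MK2-/- against wt, -0.22 for MK2/3-/- against wt and -0.09 for MK2/3-/- against MK2-/-, each at an unadjusted limma p above 0.05.

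Of the 20 names listed as ISGF3 target genes, Ddx58 and Rigi are 1 gene, and Mx1 and Mx2 had no named probe, which left 17 tested. All 17 rose under LPS in each genotype (42.1%, 44.6% and 48.2% of all genes were called), with median differences of 4.73 in wt, 4.96 in MK2-/- and 4.64 in MK2/3-/-. The largest in wt were Cmpk2 (6.87), a mitochondrial nucleotide kinase, Rsad2 (6.87), which encodes the antiviral enzyme viperin, Usp18 (6.35), which removes the ubiquitin-like ISG15 from proteins, and Ifit1 (5.83), which binds foreign RNA. In MK2-/- these 4 rose by 7.40, 7.77, 6.72 and 6.45, and in MK2/3-/- by 7.44, 7.53, 6.95 and 6.03. Their direction held with 75th percentile scaling.

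None of the 17 was called by limma between any genotypes under LPS, with differences of -0.60 to 0.35 in MK2-/- against wt, -0.35 to 0.67 in MK2/3-/- against wt and -0.17 to 0.67 in MK2/3-/- against MK2-/-. In these comparisons 11.6%, 23.6% and 13.5% of all genes were called. At an unadjusted limma p below 0.05 the counts were 0, 0 and 0 of 17, and 6601, 8201 and 6341 of all 22384 genes. With the methods' t-test at that threshold they were 3, 6 and 2 of 17, and its counts over all genes are not given here. The mean log2 signal of the 16 genes measured on every array was 16.13 to 16.35 on the wt LPS arrays, 15.92 to 16.38 in MK2-/- LPS and 16.17 to 16.43 in MK2/3-/- LPS, which overlap. Of single genes, Usp18 read 15.92 to 16.44 in MK2-/- LPS and 16.70 to 16.72 in wt LPS, Isg15 18.42 to 18.48 and 18.54 to 18.59, and Ddx58 15.39 to 15.63 and 15.78 to 15.84. These 3 of 17, named after their values were seen, were lower in MK2-/- with no overlap, 0 were higher, and they were not called. In MK2/3-/- against wt 2 of 17 were lower and 2 were higher without overlap, and between the knockouts 0 were. The share of all genes without overlap is not given here, so these counts are not read further. In medium the mean of the 16 genes was 11.22 to 12.78, 11.09 to 11.74 and 10.87 to 12.25. The LPS responses of the 17 were not called as different by limma either. At an unadjusted p below 0.05 were 1, 0 and 0 of 17 in the 3 comparisons of responses, and 1685, 2545 and 1926 of all 22384 genes.

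**Figure D4:**
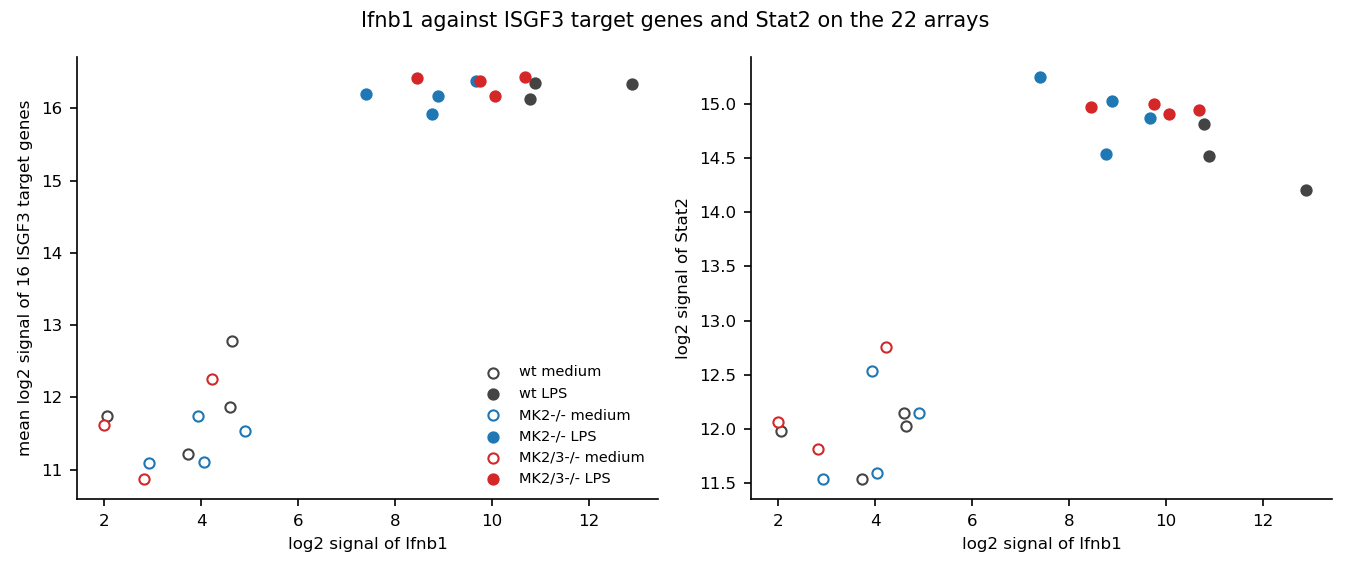
Log2 signal of Ifnb1 (horizontal) on each of the 22 arrays against the mean log2 signal of 16 ISGF3 target genes (left) and against the log2 signal of Stat2 (right), with open circles for medium and filled circles for LPS. Over the 11 LPS arrays Ifnb1 ran from 7.41 to 12.89, while the mean of the target genes stayed between 15.92 and 16.43.

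Across arrays the 6 genes varied together mostly through treatment. Over the 22 arrays Ifnb1 correlated with Tyk2 at r = 0.94, with Stat2 at 0.89, with Jak1 at 0.59, with Ifnar2 at -0.82 and with Ifnar1 probe 1 at -0.77. Over the 11 LPS arrays alone the values were 0.60, -0.75, -0.59, -0.47 and -0.44. Stat2 and Jak1 correlated at 0.82 over 22 and 0.79 over 11 arrays, and Ifnar1 and Ifnar2 at 0.81 and 0.79. Over the LPS arrays the correlation of Ifnb1 with the 17 target genes ran from -0.63 (Irf7) to 0.82 (Rsad2), with 6 of 17 below 0. The arrays share slides by genotype, so these are descriptions without a test.

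Over the 22 arrays the 5 genes most like Ifnb1 among 17519 compared were Parp10 (r = 0.968), Dll1 (0.965), Usb1 (0.960), Spryd7 (0.959) and Tapbpl (0.959). Those most like Stat2 were Xaf1 (0.991), Gm12250 (0.991), Irgm1 (0.987), Slc2a6 (0.986) and Trex1 (0.985). Over the 11 LPS arrays, genes most like Ifnb1 among 17601 included Armc8 (0.930), Cenpj (0.922), Exoc6 (0.912) and Phc2 (0.909), none of which was among those named for all arrays.

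The genes on the route from TLR4 to Ifnb1 were 16, all tested. Under LPS 8 rose and 3 fell in wt, 11 rose and 3 fell in MK2-/-, and 10 rose and 3 fell in MK2/3-/-, where 42.1%, 44.6% and 48.2% of all genes were called. The largest called differences in wt were those of Irf7 (3.50), an interferon-inducible factor that drives interferon alpha genes, Nfkbib (3.27), an inhibitor of NF-kB, Ikbke (3.19), which encodes IKK epsilon, and Nfkb1 (2.67), an NF-kB subunit. In MK2-/- these 4 rose by 3.95, 3.24, 3.57 and 2.84, and in MK2/3-/- by 4.64, 3.52, 3.76 and 3.10. Between genotypes under LPS 2 genes of the route were called in MK2-/- against wt, where 11.6% of all genes were called, and both were higher: Ly96, the MD-2 partner of TLR4, by 1.12 (adjusted p 0.0272) and Ticam1, which encodes TRIF, by 0.67 (adjusted p 0.0323). The Ly96 call was lost without wt LPS replicate 1, 2 or 3 or MK2-/- LPS replicate 1 or 2 (adjusted p 0.0520 to 0.0819), and that of Ticam1 without wt LPS replicate 1 or 2 or MK2-/- LPS replicate 1 or 2 (adjusted p 0.0697 to 0.106) and with 75th percentile scaling (0.52, adjusted p 0.0699). Ticam1 was also higher in MK2/3-/- than in wt, by 0.83 (adjusted p 0.00505). The other 14 of 16 were not called in MK2-/- against wt. Of the 17 calls of list genes between genotypes under LPS, 15 were lost with the methods' t-test after Benjamini-Hochberg and 13 when only the groups compared were fitted.

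Among the 10 inhibitors of receptor signalling, 7 rose in wt, 6 in MK2-/- and 6 in MK2/3-/-, with 1 lower in the last, where 42.1%, 44.6% and 48.2% of all genes were called. In wt the top 4 were Socs3 (6.69), Usp18 (6.35), Socs1 (6.05) and Cish (4.81), where SOCS proteins and CISH block cytokine receptor kinases or their docking sites and USP18 binds IFNAR2. In MK2-/- they rose by 7.45, 6.72, 6.91 and 6.34, and in MK2/3-/- by 7.06, 6.95, 5.55 and 7.45, where Cish was not well above background on any medium array and its rise was at least 113-fold on this scale. With normexp, which adds an offset, the difference of Cish in MK2/3-/- was 3.97. Ptpn1, a tyrosine phosphatase of JAK kinases, was the gene that fell in MK2/3-/- (-1.13). Its LPS level in MK2/3-/- differed from wt by -1.32 (adjusted p 0.00396) and from MK2-/- by -1.30 (adjusted p 0.00391), with LPS arrays at 10.51 to 11.66 against 11.65 to 12.66 in wt and 11.82 to 12.86 in MK2-/-. Pias4, a SUMO ligase, likewise differed by -0.58 (adjusted p 0.0294) and -0.64 (adjusted p 0.0187). The first call of Pias4 was lost without wt LPS replicate 1, 2 or 3 or MK2/3-/- LPS replicate 1 or 4 (adjusted p 0.0579 to 0.0877), and the second without MK2-/- LPS replicate 1 or 2 or MK2/3-/- LPS replicate 4 (adjusted p 0.0537 to 0.0622). By the other probe of Ptpn1 the difference from wt was -2.05. None of the 10 was called in MK2-/- against wt under LPS, where 11.6% of all genes were called. An unadjusted limma p below 0.05 was found for 0 of 10, and for 6601 of all 22384 genes.

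Of the 7 other JAK and STAT genes, 5 rose and 1 fell in wt, and 6 rose and 1 fell in each knockout, where 42.1%, 44.6% and 48.2% of all genes were called. The largest in wt were Jak2 (3.86), the kinase of many cytokine receptors, Stat5a (3.01), Stat3 (2.76) and Stat4 (1.89). In MK2-/- these rose by 3.93, 3.62, 2.35 and 3.38, and in MK2/3-/- by 3.74, 3.25, 2.93 and 2.89. Stat6, the factor of interleukin 4 signalling, was the 1 that fell (-0.73 in wt, -0.75 in MK2-/- and -0.73 in MK2/3-/-). None of the 7 was called under LPS in MK2-/- against wt, MK2/3-/- against wt or MK2/3-/- against MK2-/-, where 11.6%, 23.6% and 13.5% of all genes were called. An unadjusted limma p below 0.05 was found for 1, 0 and 0 of 7, and for 6601, 8201 and 6341 of all 22384 genes.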

How the data were processed

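Total RNA of the 22 cultures was hybridised to 1-colour Agilent mouse arrays, which the authors read with Agilent Feature Extraction 11.0.1.1. The deposited scanner files give gProcessedSignal, a background-subtracted intensity, and flags per spot. The authors also deposited a table of processed log2 values, used here as an alternative. Spots marked as non-uniform or population outliers were set to missing, log2 intensities were quantile normalised, and spots of 1 probe were averaged. Probes had to be well above background on at least 3 arrays. Accessions were named from RefSeq (GRCm38.p6), which matched 27509 of 29150 RefSeq probes, and a gene took its probe with the highest mean. All 6 groups entered 1 limma 3.58.1 model (R 4.3.3) over 22384 genes without a block, with 12 comparisons, each adjusted by Benjamini-Hochberg. The methods' own test, a two-sample t-test, was run as an alternative. The scripts were tested on simulated data. Genes, lists and motifs were chosen with earlier results of these data known. The genes named from a list were the 4 with the largest called differences between LPS and medium in wt, and those called between genotypes under LPS or in a response difference. A few further list genes, Ifngr2 and Irf9 in the knockouts, Il10rb and Stat6, were named after their values were seen. Some genes that the rule names are not reported here. For arrays the number of arrays limits the precision.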

Additional observations from a re-analysis of the deposited data

Results flagged for a closer look

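In 3 of 32 groups of 4 arrays examined over the 8 probes, 1 array stood apart from the other 3 by Dixon's gap test, and chance alone gives about 1 in 20. Ifnar1 probe 1 read 12.92 on MK2-/- medium replicate 1, with the nearest of the others at 13.37. Ifnar2 read 13.23 on MK2/3-/- LPS replicate 3, with the nearest at 13.53. Tyk2 read 12.10 on MK2-/- LPS replicate 2, with the nearest at 12.56, and the same array had the lowest Ifnb1 and the highest Stat2, Jak1 and Ifnar1 probe 1 of its group.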

How the results depend on the processing

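The rises of Ifnb1, Tyk2 and Stat2 under LPS kept their direction and call in all 3 genotypes under every alternative run. Values that turned were Ifnar2 (0.15 in wt and 0.32 in MK2-/-) and Ifnar1 (0.17 in MK2-/-) with 75th percentile scaling, and Ifnar1 (1.29, 1.46 and 0.91 in wt, MK2-/- and MK2/3-/-) with the probe of highest induction in wt, which is probe 3. The count of the 6 genes called in MK2/3-/- against wt under LPS, 0, became 1 with 75th percentile scaling, 1 with normexp, 3 with the methods' t-test unadjusted and 1 with array weights. That in MK2-/- against wt under LPS, 1, became 0 with the t-test after Benjamini-Hochberg, 3 with array weights and 0 with only the groups compared. That in MK2/3-/- against MK2-/- under LPS, 1, became 2 with the t-test unadjusted, 0 after Benjamini-Hochberg, 0 with only the groups compared and 2 without both arrays of letter c, which was chosen after seeing the data, as was setting marked spots to missing after normalising. In medium, MK2/3-/- against MK2-/- went from 0 to 1 with the t-test unadjusted. Leaving out 1 array gave 3 to 5 of 6 for LPS in wt, 4 to 6 in MK2-/-, 5 to 6 in MK2/3-/-, and under LPS 0 to 2 in MK2-/- against wt, 0 to 0 in MK2/3-/- against wt and 0 to 2 in MK2/3-/- against MK2-/-. Over all alternatives genes called in MK2/3-/- against wt under LPS ranged from 62 (t-test after Benjamini-Hochberg) to 9320 (every probe as a row), compared with 5281.

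Whether LPS and medium samples of a genotype were paired is not stated in the labels, and the check did not settle it. Of the 10 pairs with the same number, 7 correlated above 0.1 in their deviations (-0.09 to 0.37). Likewise 7 of the 10 pairs with the same letter did (-0.09 to 0.42). LPS and medium samples of the same letter also came from mice of the same age, and the main model used no pairing. With a replicate block by number the counts called under LPS were 5, 5 and 6 of 6 in wt, MK2-/- and MK2/3-/-, and by letter 5, 5 and 6, and neither replicate block changed a count of the 6 genes. For 42 further differences of the 6 genes, only part of which are given as ranges in the text, 51 of 1530 refits changed the sign, none of them with a call, and 9 gave a call. Depth limits Ifnb1 in medium, where 4 of 11 arrays were well above background.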
